A study of Mus musculus with 9 samples.

Results

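Purified adult mouse cardiomyocytes (CMa) were compared with purified neonatal mouse cardiomyocytes (CMp) across all genes measured on an Illumina bead array, to describe how heart muscle cells differ between 2 months and 1 day of age. The members were chosen by group label and comprised 6 of the 9 arrays of the series, 3 for CMa and 3 for CMp. CMa RNA came from the left ventricle of mice 2 months old, and CMp RNA came from the heart, with no chamber named, of mice 1 day old. Both were primary cells that the labels describe as purified and cultured, and neither received a treatment. No allele is named in the labels, and the strain, the sex of the animals, any pooling of animals and the purity of the cells are left unstated by them. Age and heart region differ together, so their parts in any difference cannot be told apart. The other 3 arrays were of undifferentiated embryonic stem cells (mES). They entered only the detection filter, the normalization, the choice of each gene's probe and the estimate of the spread between arrays.

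Around birth, mouse cardiomyocytes still divide, burn much of their energy from glucose and lactate, and carry several fetal sarcomere isoforms. In the weeks that follow they leave the cell cycle, enlarge, build T-tubules and dense mitochondria, and turn to fatty acids as their main fuel. A neonatal heart digest also holds fibroblasts, endothelial cells, blood cells and epicardial cells, whose RNA is measured along with that of the muscle cells in a bulk sample.

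Levels are given as log2 normalized intensity, where 1 unit is a 2-fold step and about 4 is the floor set by an offset of 16. A gene was called where limma's moderated test gave a Benjamini-Hochberg adjusted p under 0.05 over all 10800 genes tested, and differences are CMa minus CMp throughout. The arrays had median raw intensities of 88.7 to 93.6 for CMa and 94.5 to 98.5 for CMp. At a detection p under 0.01, 13781 to 15233 of the 45281 probes were detected on the CMa arrays and 16621 to 17946 on the CMp arrays. Genome-wide levels correlated at 0.973 to 0.985 (Pearson's r) among CMa arrays and at 0.849 to 0.883 between CMa and CMp arrays. CMp replicates 2 and 3 correlated at 0.995, and CMp replicate 1 correlated at 0.965 with each of them. On that array 985 genes (9.12% of those tested) lay over 1 log2 unit from the mean of the other 2 arrays of the group, against 80 to 371 genes on the other 5 arrays. CMp replicate 1 also shared part of its departure with CMa replicate 1. The correlation of their departures from the group means was 0.35 across genes, and it was -0.43 between CMp replicate 1 and CMa replicate 3. List counts of 5 or more that move by over 1.5 times without CMp replicate 1, or within 1 of the array sets (CMp replicate 1 with CMa replicates 1 and 2, or CMp replicates 2 and 3 with CMa replicate 3, sets chosen after seeing the data), are therefore given beside the result.

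The labelled cell type was checked first. Genes that define contractile heart cells were bright in both groups. Myh6, the main adult mouse cardiac myosin heavy chain, had 14.81, 14.95 and 15.12 log2 units on the CMa arrays, against 14.84, 14.99 and 15.06 on the CMp arrays, and the groups overlapped. Actc1, cardiac actin, had 14.62, 14.58 and 14.72 log2 units on the CMa arrays, against 14.93, 14.38 and 14.64 on the CMp arrays, again with overlap. Myl2, the ventricular regulatory light chain, had 14.82, 15.03 and 15.24 log2 units on the CMa arrays, against 14.96, 15.28 and 15.12 on the CMp arrays. For these 3 genes, and for Myl3 and Actn2, the test was not passed (log2 changes of 0.00, -0.01, -0.09, -0.17 and 0.04). Several of them lie near the top of the measured range, which limits the difference that could be seen. Of the remaining markers, Tnni3 (log2 change 0.80), Ryr2 (log2 change 0.89) and Csrp3 (log2 change 0.82) were called higher in CMa, while Mybpc3 (log2 change 0.62) did not pass.

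Across the genome, 5633 of 10800 genes (52.2%) were called, 2845 (26.3%) higher and 2788 (25.8%) lower in CMa. Of these, 3187 (29.5%) changed at least 2-fold, 1527 (14.1%) higher and 1660 (15.4%) lower. The 3 arrays of one group did not overlap those of the other for 6017 genes (55.7%), of which 3068 (28.4%) were higher in CMa and 2949 (27.3%) lower. The median log2 change of all genes was 0.01, with quartiles of -0.60 and 0.60. Scaling the arrays by their medians in place of quantiles moved that median to -0.20, and the calls then split into 1986 higher and 3682 lower, so the near-even split rests on the scaling. A set of 726 genes was detected on every CMp array and no CMa array, and 102 genes on every CMa array and no CMp array. The lowest detected level was 5.31 to 5.64 log2 units on the CMa arrays and 4.89 to 5.06 on the CMp arrays. A gene at the same low level can thus be detected in CMp and not in CMa, which limits what the difference in these counts shows.

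The largest increase was that of Ces1d, a carboxylesterase that acts on stored triglyceride, at 11.72, 12.11 and 12.50 log2 units on the CMa arrays, against 5.48, 4.98 and 5.15 on the CMp arrays. The fit gave a log2 change of 6.91 ± 0.21 (SE; adjusted p = 7.64e-09). Its CMa arrays all lay over 6 log2 units above its highest CMp array. Art1, an arginine ADP-ribosyltransferase of striated muscle, was next by the fit and was at least 56.4-fold higher in CMa (adjusted p = 2.99e-09), with no CMp array detecting it. Bdh1, the mitochondrial enzyme that interconverts ketone bodies, was at least 40.8-fold higher in CMa (adjusted p = 1.73e-08), with no CMp array detecting it. Scn4b, an auxiliary subunit of the cardiac sodium channel, had 10.38, 9.97 and 10.67 log2 units on the CMa arrays, against 5.45, 4.51 and 4.89 on the CMp arrays, and only 1 of the 3 CMp arrays detected it. The other large increases were in Trim54 (a muscle RING-finger ubiquitin ligase that binds microtubules and titin, log2 change 5.32), Mapt (the microtubule protein tau, log2 change 4.98), Lrtm1 (log2 change 4.80), Sh3rf2 (log2 change 4.58), Rom1 (log2 change 4.53, detected on 1 of 3 CMp arrays) and Rxrg (a retinoid X receptor, log2 change 4.50).

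The largest decrease by the fit was that of Dlk1, an imprinted membrane protein of fetal tissues, at 4.55, 4.41 and 4.30 log2 units on the CMa arrays, against 11.85, 12.07 and 11.94 on the CMp arrays. It was at least 88.1-fold lower in CMa (adjusted p = 3.69e-09), with no CMa array detecting it. Tnni1, the slow skeletal troponin I of the fetal heart, had 4.57, 4.28 and 4.74 log2 units on the CMa arrays, against 12.02, 12.03 and 11.92 on the CMp arrays, and was at least 90.5-fold lower in CMa (adjusted p = 3.69e-09), with no CMa array detecting it. For both genes the CMa arrays sat near the floor and the groups were far apart. The rest of the 10 largest decreases were mostly genes of vessels, inflammation and matrix. They comprised the chemokines Ccl4 (at least 91.8-fold lower, not detected in CMa), Cxcl1 (log2 change -6.24) and Ccl7 (log2 change -6.20, detected on 2 of 3 CMa arrays), the endothelial adhesion molecule Selp (at least 67.6-fold lower, not detected in CMa), the matrix genes Eln (elastin, log2 change -6.03) and Col1a1 (log2 change -5.59, detected on 2 of 3 CMa arrays), the secreted growth factor Ptn (at least 38.3-fold lower, not detected in CMa) and the X-inactivation RNA Xist (at least 48.8-fold lower, not detected in CMa). Xist was detected on every CMp array, and the Y-linked Kdm5d was higher in CMa, so the sex of the animals and their age cannot be told apart in these groups. For Col1a1 the authors' normalized matrix gave a log2 change of 0.00, where its entry for the probe departed by 1.44 log2 units on average from the rank of the scanner signal.

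**Figure D1:**
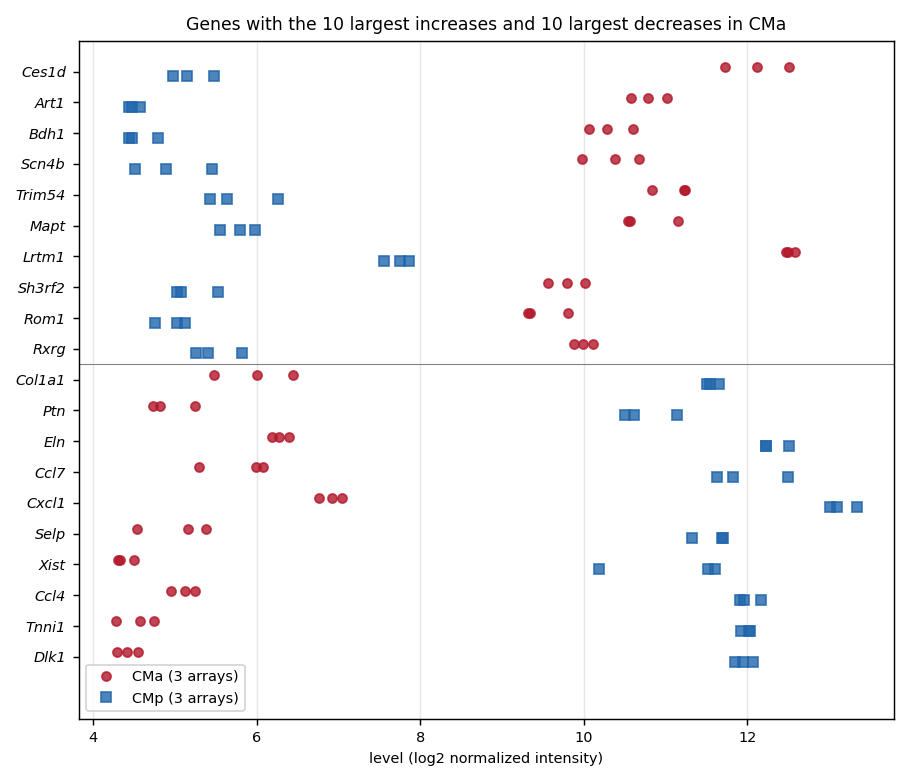
Levels (log2 normalized intensity) of the genes with the 10 largest increases (above the line) and the 10 largest decreases (below it) on each array, with CMa as circles drawn above CMp as squares. No gene shown has overlapping groups, and Ces1d lies near 12 on the CMa arrays and near 5 on the CMp arrays.

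Gene lists were drawn up for contractile cells, energy metabolism, growth and division, regulation and stress, and other cell types, and 762 of their 997 distinct genes passed the filter, which keeps genes detected on at least 3 of the 9 arrays. A gene that passed through 1 group only is bound to differ, so the counts below describe the tested members. They are to be read against the 26.3% higher and 25.8% lower of all genes tested. Of 152 tested genes of contractile cells, 59 (38.8%) were higher and 30 (19.7%) lower, with a median log2 change of 0.26. Of 178 genes of energy metabolism, 114 (64.0%) were higher and 12 (6.74%) lower, with a median of 0.70. Of 194 genes of growth and division, 5 (2.58%) were higher and 125 (64.4%) lower, with a median of -0.89, or -0.79 with undetected genes at their bound. The markers of fibroblasts, vessels, blood, epicardium and endocardium that are on no contractile-cell list numbered 104. Of these 4 were higher and 76 lower, with a median of -1.46, or -1.16 with undetected genes at their bound, and 21 were detected on no CMa array while each was detected on some CMp array. Undetected genes at their bound means that a gene detected on no array of a group enters the median at its bound, or at 0 where none could be set. Without background correction the growth and division median was -0.63, and that of the 104 markers -0.88, and 15 of the 32 lists with at least 5 tested members and a median over 0.2 from 0 lay over 1.5 times nearer 0. In a bulk sample, fewer cells of a type and less RNA per cell cannot be told apart.

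**Figure D2:**
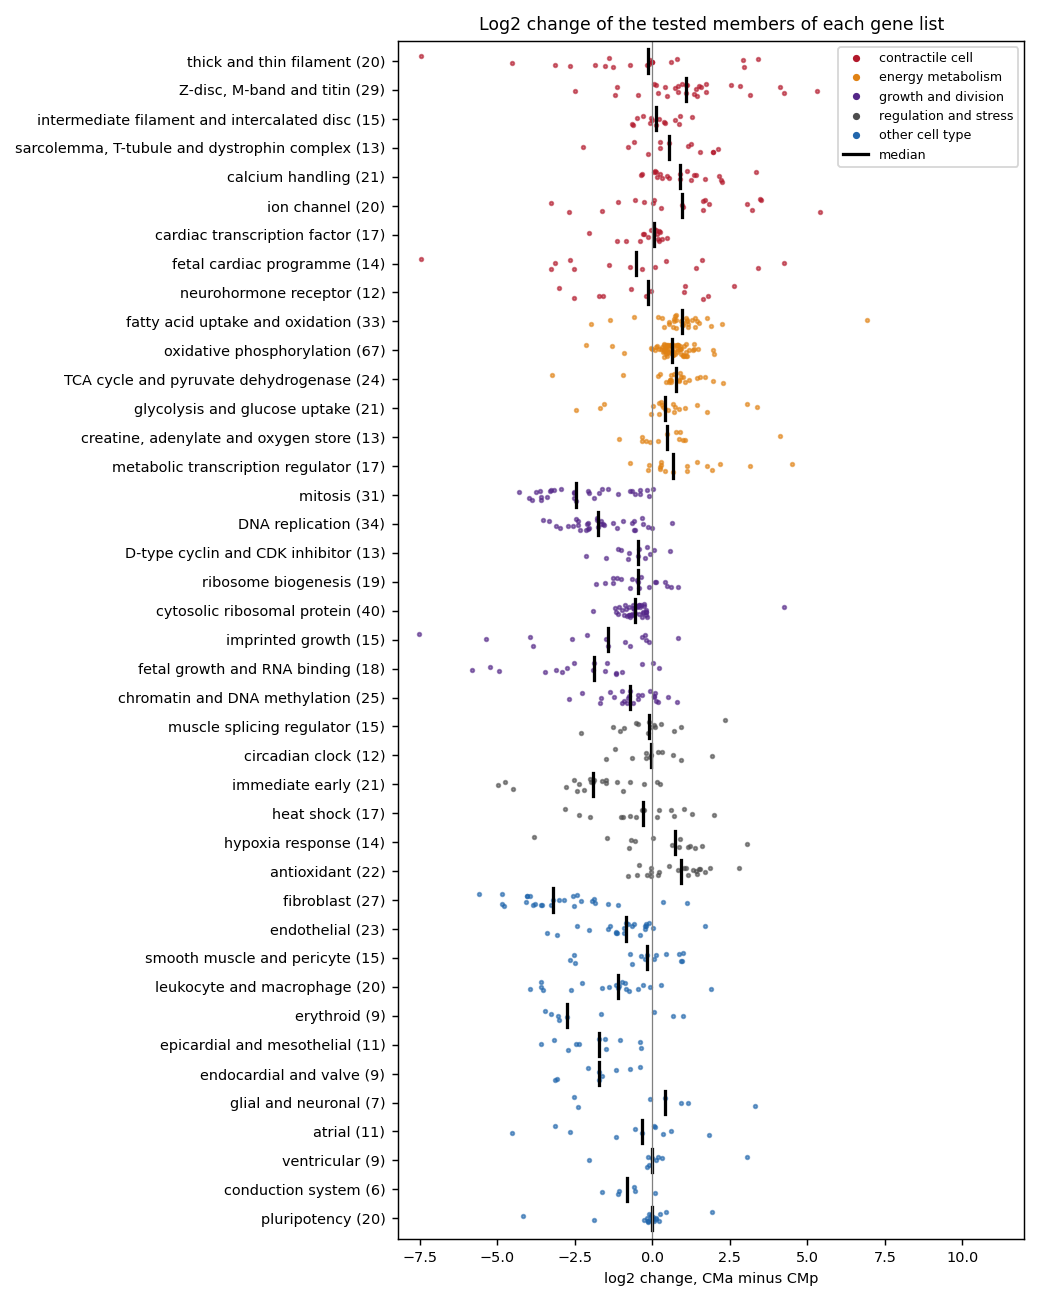
Log2 change (CMa minus CMp) of each tested member of every list with at least 5 tested members, as points coloured by class, with the list's median as a black bar and the number tested in brackets. Metabolic lists lie mostly right of 0, growth and division lists and most lists of other cell types lie left of it, and contractile lists spread to both sides.

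The sarcomere's thick and thin filaments, the motor and its regulatory proteins, held members that moved in opposite directions. In that list 4 of 20 tested members were higher, 9 were lower and 7 did not pass (median log2 change -0.13, but 0.02 with cyclic loess). As a share of the summed signal of all genes tested, the list held 2.01%, 2.25% and 2.35% on the CMa arrays, against 2.41%, 2.16% and 2.12% on the CMp arrays, and the group ranges overlapped. Tnni3, the adult cardiac troponin I, had 12.06, 11.51 and 11.69 log2 units on the CMa arrays, against 11.07, 10.92 and 10.86 on the CMp arrays. It showed a log2 change of 0.80 ± 0.18 (SE; adjusted p = 0.00341), and every CMa array lay above every CMp array, while Tnni1 was detected on no CMa array. With CMp replicate 1 and CMa replicates 1 and 2 alone, the Tnni3 call was lost (log2 change 0.71, adjusted p = 0.073). Acta1, skeletal alpha-actin, which heart muscle also uses, had 14.44, 14.40 and 14.30 log2 units on the CMa arrays, against 10.85, 10.97 and 11.07 on the CMp arrays. It showed a log2 change of 3.42 ± 0.25 (SE; adjusted p = 1.5e-06), against overlapping levels of Actc1.

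The atrial and fetal light chains were lower in CMa. Myl7, the atrial regulatory light chain, had 6.40, 8.45 and 7.86 log2 units on the CMa arrays, against 12.69, 9.74 and 9.68 on the CMp arrays. CMp replicate 1 stood about 3 log2 units above the other CMp arrays, yet the groups did not overlap (log2 change -3.13, SE 0.73, adjusted p = 0.00427). Myl4 (the atrial and fetal essential light chain, log2 change -2.64) was lower as well, though the call was lost with CMp replicates 2 and 3 and CMa replicate 3 alone (log2 change -1.56, adjusted p = 0.0648). Myh7 (the slow myosin heavy chain of the fetal mouse ventricle, log2 change -1.40) was lower, and this call was lost in the authors' normalized matrix (log2 change -0.73, adjusted p = 0.073). Myl9 (a smooth muscle and non-muscle light chain, log2 change -4.54) had the largest decrease of the list after Tnni1. Of genes better known from skeletal muscle, Mybpc2 (log2 change 2.91) and Myl1 (log2 change 2.94) were higher.

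Among genes of the Z-disc, M-band and titin filament, which anchor and align the filaments, 18 of 29 tested members were higher, 3 were lower and 8 did not pass (median log2 change 1.10). The largest increases after Trim54 were in Xirp2 (an actin-binding protein of the intercalated disc and Z-disc region, log2 change 4.24), Ankrd23 (a titin-binding ankyrin repeat protein, log2 change 4.11) and Myot (myotilin, at least 7.38-fold higher, not detected in CMp). The members called lower were Pdlim3 (log2 change -2.49), Synpo2l (log2 change -1.12) and Obsl1 (at least 1.24-fold lower, not detected in CMa). The Obsl1 value turned to 0.10 with the 6 cardiomyocyte arrays alone. That fit normalized them without mES, chose each gene's probe anew and took the spread from them only. Of intermediate filament and intercalated disc genes, 4 of 15 tested members were higher, 2 were lower and 9 did not pass (median log2 change 0.11). The share called higher lay near the 26.3% of all genes tested. Higher members included Cryab (the small heat shock protein that guards desmin, log2 change 1.29), Des (desmin, log2 change 0.87) and Nrap (log2 change 0.74), the Des call being lost with CMp replicate 1 and CMa replicates 1 and 2 alone (log2 change 0.71, adjusted p = 0.0717). The 2 members called lower, Vcl (log2 change -0.65) and Jup (at least 1.16-fold lower, not detected in CMa), lost the call without CMa replicate 1 (log2 changes of -0.54 and -0.35), CMa replicate 2, CMp replicate 2 or CMp replicate 3. In the sarcolemma, T-tubule and dystrophin complex list, 5 of 13 tested members were higher, 2 were lower and 6 did not pass (median log2 change 0.53). Dtna (alpha-dystrobrevin, log2 change 2.12), Itga7 (the laminin-binding integrin of striated muscle, log2 change 1.95) and Sgca (alpha-sarcoglycan, log2 change 1.95) were higher. Bin1 (which shapes T-tubule membranes, log2 change -2.23) was lower on its tested probe, and its entry in the authors' matrix gave 0.01 at a mean departure of 0.71 log2 units from the scanner rank.

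Calcium handling genes were higher or did not pass: 11 of 21 tested members were higher and 10 did not pass (median log2 change 0.89). That median was 0.46 with median scaling, 0.58 with cyclic loess, 0.30 without background correction and 0.36 in the authors' matrix. Hrc (the histidine-rich calcium buffer of the sarcoplasmic reticulum, log2 change 2.24), S100a1 (a calcium sensor that acts on the ryanodine receptor and the calcium pump, log2 change 2.21) and Camk2b (log2 change 2.17) led the list along with Asph (log2 change 3.35). For Asph the mean of its probes gave a log2 change of 0.71, which did not pass (adjusted p = 0.0615). S100a1 had 13.92, 13.70 and 13.19 log2 units on the CMa arrays, against 11.82, 11.04 and 11.33 on the CMp arrays, with no overlap. Ryr2, the calcium release channel, had 12.83, 12.83 and 13.60 log2 units on the CMa arrays, against 11.95, 12.41 and 12.24 on the CMp arrays and also did not overlap (log2 change 0.89, SE 0.23, adjusted p = 0.0076). Among ion channels, 11 of 20 tested members were higher, 4 were lower and 5 did not pass (median log2 change 0.96). The ion channel median was 0.59 without background correction and 0.21 in the authors' matrix. Subunits of the transient outward potassium current were among the increases. Kcnd2, a pore subunit, had 9.10, 9.20 and 9.38 log2 units on the CMa arrays, against 6.12, 5.51 and 5.53 on the CMp arrays (log2 change 3.51, SE 0.19, adjusted p = 1.96e-07). Kcnip2 (its auxiliary subunit in heart, log2 change 3.05, detected on 2 of 3 CMp arrays) was higher as well. Kcnv2 (a silent potassium channel subunit, at least 8.4-fold higher, not detected in CMp) was higher too. Cacna1h (a T-type calcium channel of the fetal heart, at least 5.53-fold lower, not detected in CMa), Kcne1 (the auxiliary subunit of the slow delayed rectifier, log2 change -2.69), Gja5 (connexin 40 of atria, conduction system and arteries, log2 change -1.61) and Gjc1 (connexin 45, log2 change -1.09) were lower, and the authors' matrix gave 0.00 for Gjc1, where its entry departed by 0.93 log2 units from the scanner rank.

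Few cardiac transcription factors were called: 3 of 17 tested members were lower and 14 did not pass (median log2 change 0.06, but -0.07 with median scaling). The lower members were Hey2 (a Notch target of compact ventricular muscle, log2 change -2.05), Tbx20 (log2 change -1.14) and Gata6 (log2 change -0.86), the last losing its call with CMp replicates 2 and 3 and CMa replicate 3 alone (log2 change -0.56, adjusted p = 0.0546). The fetal cardiac programme list holds genes of which adult hearts switch on several, but not all, again under load. In it 4 of 14 tested members were higher, 7 were lower and 3 did not pass (median log2 change -0.53, or -0.11 with undetected genes at their bound). The members of this list went both ways. Tnni1, Cacna1h, Myl7, Myl4 and Acta2 (smooth muscle actin, log2 change -2.54) were lower, while Acta1, Xirp2, Ankrd1 (log2 change 1.40) and Nppb (B-type natriuretic peptide, log2 change 1.60) were higher. With CMp replicates 2 and 3 and CMa replicate 3 alone, 7 members were called higher and 6 lower, and the median became 0.05. Among neurohormone receptors and their partners, 5 of 12 tested members were higher, 5 were lower and 2 did not pass (median log2 change -0.13). Chrm2 (the cardiac muscarinic receptor, log2 change 2.63) and Agtrap (an angiotensin receptor partner, log2 change 1.78) were higher, and Pde4b (a cAMP phosphodiesterase, log2 change -3.00) and Ednrb (an endothelin receptor of endothelium and neural crest derivatives, log2 change -2.54) were lower.

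Paired isoforms were set side by side, each gene against its own level in the other group. Both members of 14 pairs were tested. In 7 of them the muscle or adult form was called higher and the counterpart lower, namely Tnni3 with Tnni1, Rpl3l with Rpl3, Slc2a4 with Slc2a1, Itga7 with Itga5, Ckm with Ckb, Cox6a2 with Cox6a1 and Ezh1 with Ezh2. Slc2a4, the insulin-responsive glucose transporter, had 10.43, 10.47 and 10.78 log2 units on the CMa arrays, against 8.12, 7.14 and 7.29 on the CMp arrays (log2 change 3.05, SE 0.24, adjusted p = 2.91e-06). Slc2a1 (the widespread glucose transporter, log2 change -1.56) was lower. Ckm (muscle creatine kinase, log2 change 0.85) was higher and Ckb (the brain form, log2 change -1.06) lower. Of cytochrome c oxidase subunits, Cox7a1 (log2 change 1.98) was higher while Cox7a2 (log2 change 0.33) did not pass, and Cox6a1 (log2 change -1.30) was lower. Cox6a2 (log2 change 0.46) was higher but lost the call without CMa replicate 2 (log2 change 0.39, adjusted p = 0.0704) or without CMp replicate 2 (log2 change 0.45, adjusted p = 0.0564). Pdk3 (a pyruvate dehydrogenase kinase, at least 4.96-fold lower, not detected in CMa) was lower, and Pdk4 (log2 change 0.25) did not pass. Ezh2 (the Polycomb methyltransferase of dividing cells, log2 change -2.25) was lower and Ezh1 (log2 change 0.78, detected on 2 of 3 CMa arrays, detected on 1 of 3 CMp arrays) higher, the Ezh1 call being lost with median scaling (log2 change 0.34, adjusted p = 0.173) and in the authors' matrix (log2 change 0.06, adjusted p = 0.249).

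**Figure D3:**
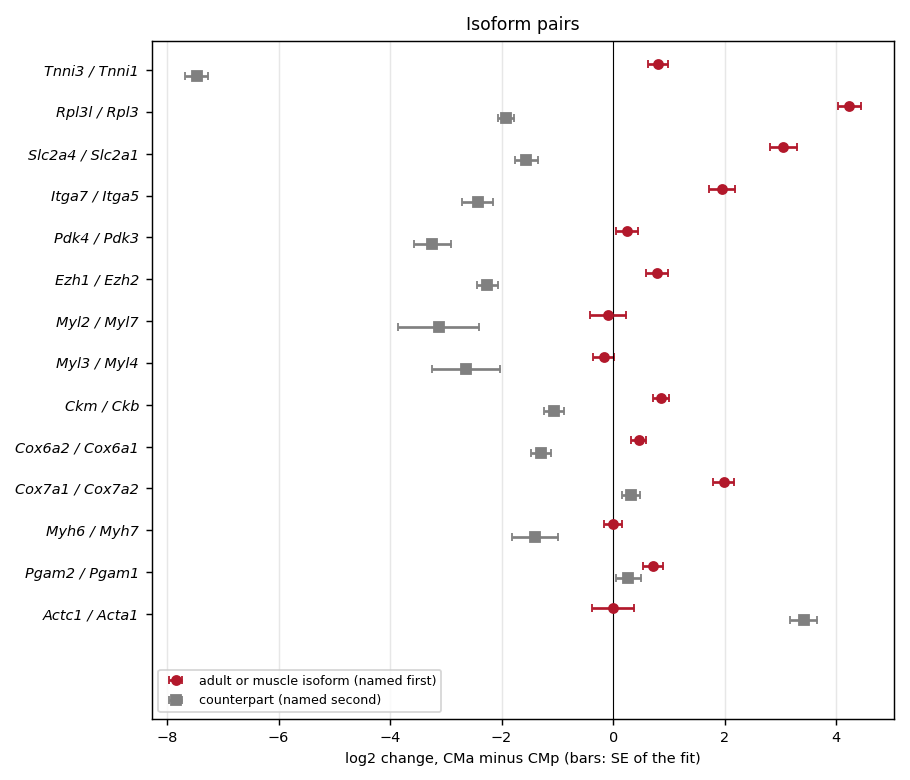
Log2 change (CMa minus CMp) with the standard error of the fit for both genes of each isoform pair in which both were tested, with the adult or muscle form as a circle and its counterpart as a square, sorted by the difference between them. Tnni3 and Tnni1 lie farthest apart, with the fitted values of Tnni1 and Pdk3, not detected in CMa, being no bounds, and in the pair of Actc1 and Acta1 the counterpart is the one that rises.

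Most tested genes of fuel use were higher. For fatty acid uptake and oxidation, 24 of 33 tested members were higher, 2 were lower and 7 did not pass (median log2 change 0.96). After Ces1d, the leading members were Plin5 (which tethers lipid droplets to mitochondria, log2 change 2.24) and Slc27a1 (a fatty acid transporter, log2 change 1.88). The 2 lower members were Acot1 (a cytosolic acyl-CoA thioesterase, log2 change -1.97) and Hadha (the alpha subunit of the trifunctional protein, log2 change -1.37). The 3 tested genes of ketone body metabolism were all called higher. Bdh1 had 10.60, 10.07 and 10.29 log2 units on the CMa arrays, against 4.80, 4.43 and 4.47 on the CMp arrays, and Oxct1 (which activates acetoacetate for use as fuel, log2 change 2.17) was next, while Acat1 (log2 change 0.85) lost its call without CMa replicate 1 (log2 change 0.62, adjusted p = 0.138), CMa replicate 3, CMp replicate 2 or CMp replicate 3.

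Of oxidative phosphorylation genes, which encode the respiratory chain and ATP synthase, 45 of 67 tested members were higher, 3 were lower and 19 did not pass (median log2 change 0.62). Of the summed signal the list held 12.2%, 11.6% and 10.8% on the CMa arrays, against 8.79%, 7.81% and 7.91% on the CMp arrays, so every CMa array lay above every CMp array. Its increases were small, with 12 members called at least 2-fold higher. The leading ones were Cox7a1, at 15.28, 15.16 and 15.01 log2 units on the CMa arrays, against 13.02, 13.22 and 13.26 on the CMp arrays, Ndufb2 (log2 change 1.97) and Ndufb3 (log2 change 1.47). The lower members were Uqcrq (log2 change -2.12), Cox6a1 and Atp5k (log2 change -0.92), and the mean of its probes gave Atp5k a value of 0.30. In the TCA cycle and pyruvate dehydrogenase list 18 of 24 tested members were higher, 2 were lower and 4 did not pass (median log2 change 0.77, or 0.65 with undetected genes at their bound), but with CMp replicate 1 and CMa replicates 1 and 2 alone 9 were called higher. Dlat (the acetyltransferase of the pyruvate dehydrogenase complex, log2 change 2.29), Pdk2 (log2 change 1.95) and Pdp2 (log2 change 1.70) were higher, and Idh3b (log2 change -0.95) was lower. Both a kinase and a phosphatase that act on the complex were higher.

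For glycolysis and glucose uptake, 9 of 21 tested members were higher, 3 were lower and 9 did not pass (median log2 change 0.41). Pfkfb2 (the cardiac enzyme that makes the activator of phosphofructokinase, log2 change 3.38), Slc2a4 and Pygm (muscle glycogen phosphorylase, log2 change 1.77) were higher. Aldoc (at least 3.2-fold lower, not detected in CMa), Slc2a3 (the high-affinity glucose transporter of fetal tissues, log2 change -1.68, detected on 1 of 3 CMa arrays) and Slc2a1 were lower, and Slc2a3 lost its call in the authors' matrix (log2 change -0.40, adjusted p = 0.0706) and with CMp replicate 1 and CMa replicates 1 and 2 alone (log2 change -0.96, adjusted p = 0.139). In the list of creatine, adenylate and oxygen stores, 7 of 13 tested members were higher, 1 was lower and 5 did not pass (median log2 change 0.47). Ckmt2, the sarcomeric mitochondrial creatine kinase, had 14.84, 14.88 and 14.81 log2 units on the CMa arrays, against 11.10, 10.46 and 10.57 on the CMp arrays (log2 change 4.13, SE 0.18, adjusted p = 5.78e-08). Slc6a8 (the creatine transporter, log2 change 1.06) was higher too. Among metabolic transcription regulators, 8 of 17 tested members were higher, 1 was lower and 8 did not pass (median log2 change 0.65). Rxrg had 10.11, 9.88 and 9.99 log2 units on the CMa arrays, against 5.82, 5.25 and 5.40 on the CMp arrays. The estrogen-related receptors Esrrg (log2 change 2.17) and Esrrb (log2 change 1.91), of a family that drives mitochondrial genes, were higher. So was Lpin1 (a phosphatidate phosphatase and coactivator, log2 change 3.16) on its tested probe. The authors' matrix gave 0.03, but from another Lpin1 probe that was the brightest there. The tested probe's entry in that matrix departed by 1.14 log2 units on average from the scanner rank. Nrf1 (log2 change -0.71) was lower but lost its call without CMa replicate 2 (log2 change -0.65, adjusted p = 0.0594), CMp replicate 2 or CMp replicate 3. The estrogen-related receptor half-site AAGGTCA, searched on both strands, was found in 6 of 61 oxidative phosphorylation promoters (9.84%), 1 of 32 fatty acid oxidation promoters (3.12%) and 1 of 30 TCA cycle promoters (3.33%), against 4.72% of all promoters. Over the oxidative phosphorylation members called higher the share was 4.76% (2 of 42), near that of all promoters.

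Cell division genes were lower or did not pass. In the mitosis list 25 of 31 tested members were lower and 6 did not pass (median log2 change -2.47, or -1.57 with undetected genes at their bound), and 17 of the 31 were detected on no CMa array. In the DNA replication list 28 of 34 tested members were lower and 6 did not pass (median log2 change -1.76, or -1.60 with undetected genes at their bound), with 10 of 34 detected on no CMa array. Both medians depended on how low signals were treated. Without background correction they were -1.01 and -0.87, with 24 and 25 members lower, and in the authors' matrix -0.58 and -0.51, with 22 and 23 lower. With cyclic loess 1 member of each list was called higher, and with the 6 cardiomyocyte arrays alone 1 mitosis member was. The promoters of 4 lower members are shown, since these lists differ in the short motifs that genes of the cell cycle are known to carry. They are RefSeq sequences of GRCm38.p6, from 250 bases before to 50 bases after the annotated start. Capitals mark the CCAAT box (CCAAT or ATTGG on the printed strand), the CHR element (TTTGAA or TTCAAA) and the E2F core (TTCCCGC or GCGGGAA), which may overlap. The 2 mitosis genes are Cdca8, a subunit of the chromosomal passenger complex (chr4:124936868-124937167, minus strand), and Prc1, which bundles microtubules of the central spindle (chr7:80294201-80294500, plus strand). The 2 replication genes are Uhrf1, which recruits the maintenance DNA methyltransferase (chr17:56303087-56303386, plus strand), and E2f2, a transcription factor of the G1/S transition (chr4:136180532-136180831, plus strand). Within each list they were chosen among the lower members for the number of motif kinds and then for the size of the decrease. Promoters on a single chromosome were left out of this choice beforehand, and a gene could enter with a single promoter only.
Cdca8: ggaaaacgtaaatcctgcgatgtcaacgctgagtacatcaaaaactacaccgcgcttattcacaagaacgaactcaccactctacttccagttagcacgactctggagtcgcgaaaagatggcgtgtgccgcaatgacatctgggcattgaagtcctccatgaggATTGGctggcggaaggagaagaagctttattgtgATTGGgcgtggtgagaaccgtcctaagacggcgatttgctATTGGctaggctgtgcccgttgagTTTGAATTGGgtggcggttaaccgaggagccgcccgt
Prc1: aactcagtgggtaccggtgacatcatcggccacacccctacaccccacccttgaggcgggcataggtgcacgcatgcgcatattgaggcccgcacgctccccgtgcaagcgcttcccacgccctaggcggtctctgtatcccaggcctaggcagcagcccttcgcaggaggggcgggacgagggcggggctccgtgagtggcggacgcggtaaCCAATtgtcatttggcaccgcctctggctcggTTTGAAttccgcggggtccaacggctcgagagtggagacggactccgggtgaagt
Uhrf1: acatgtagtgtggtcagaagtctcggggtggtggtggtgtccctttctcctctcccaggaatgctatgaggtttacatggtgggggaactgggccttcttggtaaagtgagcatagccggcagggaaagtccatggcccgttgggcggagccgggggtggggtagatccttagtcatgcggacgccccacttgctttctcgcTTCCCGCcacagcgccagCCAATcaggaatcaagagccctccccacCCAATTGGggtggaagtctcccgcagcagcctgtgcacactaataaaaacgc
E2f2: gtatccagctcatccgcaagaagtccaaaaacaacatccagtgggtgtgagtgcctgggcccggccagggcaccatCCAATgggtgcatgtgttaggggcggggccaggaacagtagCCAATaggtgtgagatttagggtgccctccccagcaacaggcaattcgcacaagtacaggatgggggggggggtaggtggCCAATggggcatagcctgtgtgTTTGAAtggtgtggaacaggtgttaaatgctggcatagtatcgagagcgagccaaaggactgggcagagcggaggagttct

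Cdca8 had 4.53, 4.92 and 4.56 log2 units on the CMa arrays, against 8.39, 9.21 and 9.31 on the CMp arrays and was at least 11.1-fold lower in CMa (adjusted p = 2.56e-07), with no CMa array detecting it. Prc1 had 7.10, 7.42 and 6.86 log2 units on the CMa arrays, against 10.87, 11.25 and 11.23 on the CMp arrays (log2 change -3.99, SE 0.20, adjusted p = 1.32e-07), with no overlap between the groups, although its entry in the authors' matrix gave -0.04 at a mean departure of 2.80 log2 units from the scanner rank. Uhrf1 had 6.30, 6.76 and 6.58 log2 units on the CMa arrays, against 9.40, 10.22 and 10.01 on the CMp arrays (log2 change -3.33, SE 0.22, adjusted p = 8.09e-07). E2f2 was at least 2.59-fold lower in CMa (adjusted p = 1.42e-05), with no CMa array detecting it. Over the tested mitosis genes with a promoter in the table, 23 of 27 promoters (85.2%) held the CHR element and 21 (77.8%) a CCAAT box, and none held the E2F core, a gene having 1 promoter or several (25 genes). Over the tested replication genes (28 with a promoter), 5 of 36 promoters (13.9%) held the CHR element, 20 (55.6%) a CCAAT box and 12 (33.3%) the E2F core. Among all 32851 promoters of the same length, 17.9% held the CHR element, 37.4% a CCAAT box and 4.60% the E2F core. These letter matches are descriptions and not binding sites.

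Another member of the mitosis list with a large decrease was Anln (anillin of the cleavage furrow, log2 change -3.87, detected on 1 of 3 CMa arrays). Kif23 (a kinesin of the central spindle, log2 change -3.76) fell as well. The Kif23 call was lost with the 6 cardiomyocyte arrays alone (log2 change -1.28, adjusted p = 0.0508), where each gene's probe was also chosen anew. Of the replication list, E2f1 (log2 change -3.52, detected on 1 of 3 CMa arrays), Mcm5 (a subunit of the replicative helicase, log2 change -3.11) and Cdt1 (a licensing factor, log2 change -2.99, detected on 1 of 3 CMa arrays) fell most beside Uhrf1. Among D-type cyclins and CDK inhibitors, 4 of 13 tested members were lower and 9 did not pass (median log2 change -0.45). Inhibitors and a cyclin were among the lower genes, namely Cdkn1a (log2 change -2.15), Cdkn1c (log2 change -1.49) and Ccnd3 (log2 change -1.02). Median scaling called 7 members of that list lower, and Cdkn1c lost its call with CMp replicate 1 and CMa replicates 1 and 2 alone (log2 change -0.97, adjusted p = 0.219).

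The protein synthesis lists were lower by smaller amounts. Of cytosolic ribosomal protein genes, 1 of 40 tested members was higher, 24 were lower and 15 did not pass (median log2 change -0.57). With CMp replicate 1 and CMa replicates 1 and 2 alone, 12 were called lower. The member against the majority was Rpl3l, the paralog of Rpl3 restricted to striated muscle. It had 14.41, 14.47 and 14.56 log2 units on the CMa arrays, against 10.32, 10.25 and 10.16 on the CMp arrays (log2 change 4.23, SE 0.20, adjusted p = 9.37e-08). Rpl3 had 12.53, 12.70 and 12.42 log2 units on the CMa arrays, against 14.42, 14.49 and 14.50 on the CMp arrays (log2 change -1.92, SE 0.14, adjusted p = 1.86e-06). Neither gene's groups overlapped. Rplp0 (log2 change -1.20) and Rps26 (log2 change -1.16) were the next largest decreases, and the Rplp0 call was lost with CMp replicate 1 and CMa replicates 1 and 2 alone (log2 change -0.82, adjusted p = 0.0589). In ribosome biogenesis 2 of 19 tested members were higher, 8 were lower and 9 did not pass (median log2 change -0.47), the decreases being led by Nop58 (log2 change -1.81) and Wdr43 (log2 change -1.52). The 2 members called higher, Pes1 (log2 change 0.83) and Polr1b (log2 change 0.61), both lost the call without CMp replicate 1 (log2 changes of 0.77 and 0.43), without CMa replicate 2 or 3, and with median scaling (log2 changes of 0.43 and 0.11).

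Growth genes of fetal life were lower. In the imprinted growth list 1 of 15 tested members was higher, 10 were lower and 4 did not pass (median log2 change -1.44). Igf2, the fetal insulin-like growth factor, had 9.88, 9.95 and 9.37 log2 units on the CMa arrays, against 15.19, 15.06 and 15.07 on the CMp arrays (log2 change -5.38, SE 0.21, adjusted p = 2.8e-08), and its CMp arrays were near the brightest signals. Peg3 (log2 change -3.96) and Mest (log2 change -3.85) were lower as well. The member called higher, Impact (log2 change 0.84), did not pass with the mean of its probes (log2 change 0.36, adjusted p = 0.0614). In the list of fetal growth and RNA-binding genes 15 of 18 tested members were lower and 3 did not pass (median log2 change -1.88, or -1.56 with undetected genes at their bound). Mdk, the growth factor midkine, had 6.65, 6.22 and 6.20 log2 units on the CMa arrays, against 11.63, 11.49 and 11.63 on the CMp arrays (log2 change -5.22, SE 0.16, adjusted p = 7.64e-09). Igf2bp3 (an RNA-binding protein of fetal tissues, at least 15.2-fold lower, not detected in CMa) and Sox11 (at least 6.33-fold lower, not detected in CMa) were lower as well. In the chromatin list 1 of 25 tested members was higher, 12 were lower and 12 did not pass (median log2 change -0.73), led by Hmgb2 (log2 change -2.70), Ezh2 and the histone variants H2az1 (log2 change -1.70) and H2ax (log2 change -1.65). Of muscle splicing regulators 2 of 15 tested members were higher, 4 were lower and 9 did not pass (median log2 change -0.09, but 0.10 with cyclic loess). Rbfox1 (a splicing factor of mature muscle and neurons, log2 change 2.33) was higher and Ptbp1 (a repressor of muscle exons, log2 change -2.30) lower.

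Markers of other cell types were mostly lower in CMa. For fibroblasts, 25 of 27 tested members were lower and 2 did not pass (median log2 change -3.21). The list's share of summed signal was 0.126%, 0.141% and 0.105% on the CMa arrays, against 0.758%, 0.716% and 0.662% on the CMp arrays, without overlap. The leading genes after Col1a1 were Tnc (tenascin C, at least 13.7-fold lower, not detected in CMa), Lox (which crosslinks collagen, at least 13.4-fold lower, not detected in CMa) and Col5a1 (log2 change -4.80). The lineage marker Pdgfra, the platelet-derived growth factor receptor of fibroblasts, was detected on every array of both groups (log2 change -1.86). Tcf21 (a transcription factor of fibroblasts and epicardium, log2 change -3.58, detected on 2 of 3 CMa arrays) was lower. Fibroblast signal in CMp replicate 1 lay close to that of the other CMp arrays, with a median departure of 0.06 log2 units.

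For endothelial cells, 1 of 23 tested members was higher, 15 were lower and 7 did not pass (median log2 change -0.84). Cldn5, a tight junction protein of endothelium, had 9.85, 9.79 and 9.44 log2 units on the CMa arrays, against 12.29, 13.50 and 13.47 on the CMp arrays (log2 change -3.39, SE 0.29, adjusted p = 5.14e-06). CMp replicate 1 was the lowest CMp array, but the groups did not overlap. Plvap (log2 change -3.08), Vwf (von Willebrand factor, log2 change -2.43) and Sox17 (log2 change -2.03) were lower too. The defining markers Pecam1 and Cdh5 were detected on every array of both groups, with log2 changes of -1.12 and -1.43. The member called higher was Ly6c1 (a marker of mature endothelium and monocytes, log2 change 1.71). The list's share of signal was 0.358%, 0.394% and 0.283% on the CMa arrays, against 0.419%, 0.692% and 0.674% on the CMp arrays, with CMp replicate 1 the lowest of its group. CMp replicate 1 with CMa replicates 1 and 2 alone gave 6 members lower and 4 higher, and CMp replicates 2 and 3 with CMa replicate 3 alone gave 21 lower and 1 higher.

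Of smooth muscle and pericyte genes 4 of 15 tested members were higher, 4 were lower and 7 did not pass (median log2 change -0.19, or 0.05 with undetected genes at their bound). Both shares lay near the 26.3% higher and 25.8% lower of all genes tested. Cald1 (at least 5.36-fold lower, not detected in CMa), Acta2 and Mcam (log2 change -2.51) were lower. The higher members included Abcc9 (a subunit of the ATP-sensitive potassium channel that cardiomyocytes also express, log2 change 0.98) and Des, which is a muscle gene too, and Abcc9 lost its call in the authors' matrix (log2 change 0.08, adjusted p = 0.156). Leaving out CMp replicate 1 gave 7 lower members, median scaling gave 2 higher and 7 lower, and with CMp replicate 1 and CMa replicates 1 and 2 alone the median was 0.32. The smooth muscle and pericyte share of signal was 0.250%, 0.254% and 0.306% on the CMa arrays, against 0.460%, 0.463% and 0.485% on the CMp arrays, without overlap. Among leukocyte and macrophage genes 1 of 20 tested members was higher, 15 were lower and 4 did not pass (median log2 change -1.10, or -0.94 with undetected genes at their bound). This median was -0.43 without background correction and -0.31 in the authors' matrix. Ccl2 (a monocyte chemokine, at least 7.54-fold lower, not detected in CMa), S100a8 (log2 change -3.59, detected on 2 of 3 CMa arrays), S100a9 (log2 change -3.58, detected on 1 of 3 CMa arrays) and Cd14 (log2 change -3.53, detected on 1 of 3 CMa arrays) led the decreases. The receptor Csf1r, a defining macrophage marker, changed by -0.99 and was detected on 2 of 3 CMa arrays. Cd74 (the invariant chain of antigen presentation, log2 change 1.90) was higher, a call lost in the authors' matrix (log2 change 0.36, adjusted p = 0.0827). The share of signal of this list was 0.0192%, 0.0243% and 0.0141% on the CMa arrays, against 0.0603%, 0.0531% and 0.0581% on the CMp arrays.

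Red cell genes were mostly lower. In the erythroid list 1 of 9 tested members was higher, 6 were lower and 2 did not pass (median log2 change -2.74). Hbb-bs, an adult beta globin, had 12.41, 11.89 and 11.56 log2 units on the CMa arrays, against 14.87, 14.96 and 15.05 on the CMp arrays (log2 change -3.00, SE 0.20, adjusted p = 1.06e-06). The 3 CMa arrays lay below all CMp arrays but remained well above the floor. Hba-a1 (log2 change -3.06) and Hbb-b2 (log2 change -3.28, detected on 2 of 3 CMa arrays) were lower as well, and globin genes are near-identical copies whose probes may not separate them. Alas2 (the erythroid enzyme of haem synthesis, log2 change -3.45, detected on 2 of 3 CMa arrays) was lower. The member called higher, Fech (ferrochelatase, which ends haem synthesis in many cells, log2 change 1.00), lost its call when CMa replicate 1 or 2 or CMp replicate 2 or 3 was left out (log2 changes of 0.75 to 0.95), and also with median scaling, with cyclic loess and in the authors' matrix (0.28 to 0.86). The list's share of signal was 0.180%, 0.141% and 0.0878% on the CMa arrays, against 1.00%, 1.02% and 1.07% on the CMp arrays. Platelet and lymphocyte markers gave 2 tested genes each, with Pf4 (platelet factor 4, log2 change -1.78) lower in CMa.

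Epicardial and mesothelial genes were lower: 9 of 11 tested members were lower and 2 did not pass (median log2 change -1.73, or -1.29 with undetected genes at their bound), and 7 of the 11 were detected on no CMa array. Their median was -0.62 without background correction and -0.35 in the authors' matrix. Upk3b (log2 change -3.18, detected on 2 of 3 CMa arrays) and Upk1b (at least 3.47-fold lower, not detected in CMa), uroplakins of mesothelium, and Msln (mesothelin, at least 2.45-fold lower, not detected in CMa) were examples. Of endocardial and valve genes 8 of 9 tested members were lower and 1 did not pass (median log2 change -1.72, or -1.61 with undetected genes at their bound). The endocardial median was -0.88 without background correction and -0.44 in the authors' matrix. Lower members included Edn1 (endothelin 1, log2 change -3.14) and Vcan (versican of the cardiac jelly and valves, at least 2.1-fold lower, not detected in CMa). Of conduction system genes 3 of 6 tested members were lower and 3 did not pass (median log2 change -0.83), and Tbx3 (a factor of the conduction system, log2 change -1.08) was lower with a call lost in CMp replicate 1 and CMa replicates 1 and 2 alone (log2 change -0.39, adjusted p = 0.433). The shares of signal of these 3 lists were lower on every CMa array than on every CMp array, that of the epicardial list being 0.00211%, 0.00160% and 0.00127% on the CMa arrays, against 0.0198%, 0.0170% and 0.0153% on the CMp arrays. How far these shares account for the decreases of single genes was not tested.

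**Figure D4:**
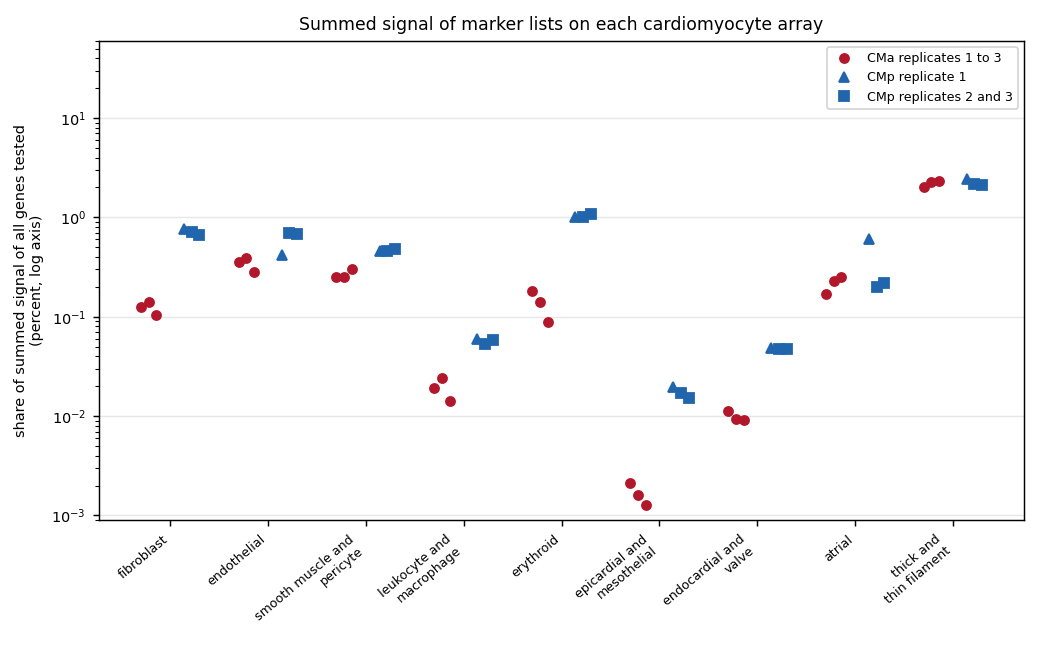
Share of the summed signal of all genes tested (percent, log axis) held by 8 marker lists and by the thick and thin filament list on each array, with CMa as red circles left of CMp in blue and CMp replicate 1 as a triangle. Fibroblast, endothelial, smooth muscle, leukocyte, erythroid, epicardial and endocardial shares are lower on all CMa arrays than on all CMp arrays. The filament and atrial shares overlap, and the atrial share of CMp replicate 1 stands at 0.604%.

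The chamber markers bear on the difference in heart region. Of atrial genes 1 of 11 tested members was higher, 3 were lower and 7 did not pass (median log2 change -0.32). The share of atrial genes called lower lay near the 25.8% of all genes tested. Of ventricular genes 1 of 9 tested members was higher, 1 was lower and 7 did not pass. The ventricular median log2 change was -0.01, but 0.03 with median scaling and 0.18 with cyclic loess. Dkk3 (log2 change -4.52, detected on 2 of 3 CMa arrays), Myl7 and Myl4 were the lower atrial genes, and Kcnj3 (a subunit of the acetylcholine-activated potassium channel, at least 2.57-fold higher, not detected in CMp) was the higher one. The atrial list was the one in which CMp replicate 1 departed most of those drawn, by a median of 1.10 log2 units over the other CMp arrays. It held 0.604% of the signal on that array, against 0.200% and 0.217% on CMp replicates 2 and 3. Sln, sarcolipin, the atrial inhibitor of the calcium pump, had 6.43, 8.46 and 8.35 log2 units on the CMa arrays, against 11.17, 6.28 and 6.74 on the CMp arrays. CMp replicate 1 alone was high, and the remaining arrays of both groups overlapped. Its log2 change was -0.32 and did not pass. Leaving out CMp replicate 1 gave 2 higher and 4 lower atrial members and a median of 0.02. For the atrial list, CMp replicates 2 and 3 with CMa replicate 3 alone gave a median of 0.24. With CMp replicate 1 and CMa replicates 1 and 2 alone the atrial median was -0.77.

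CMp replicate 1 departed in other genes too. Of the 985 genes it departed in, 449 were above and 536 below the mean of replicates 2 and 3. The 5 largest departures were in Sln (4.66), Mybphl, a myosin-binding protein of atria (3.55), Sec23a, a subunit of the COPII coat of secretory vesicles (3.20), Rbbp7, a histone-binding protein (3.16), and Rnf13, a ubiquitin ligase of endosomes (3.07). Mybphl had 5.46, 6.80 and 6.64 log2 units on the CMa arrays, against 9.83, 6.20 and 6.36 on the CMp arrays. Rbbp7 had 10.12, 10.19 and 8.22 log2 units on the CMa arrays, against 11.22, 8.09 and 8.02 on the CMp arrays. Sec23a had 6.57, 6.73 and 5.95 log2 units on the CMa arrays, against 8.05, 4.96 and 4.73 on the CMp arrays. For Rbbp7 and Sec23a, CMa replicates 1 and 2 lay above CMa replicate 3, just as CMp replicate 1 lay above CMp replicates 2 and 3. Of the 449 genes above in CMp replicate 1, 100 (22.3%) were also over 1 log2 unit higher in CMa replicates 1 and 2 than in CMa replicate 3. They were 49.8% of the 201 genes of that kind in CMa. Of the 536 genes below, 51 (9.51%) moved with CMa replicates 1 and 2, being 30.0% of the 170 such genes in CMa. With several kept probes to a gene, the departure could be limited to 1 probe. Of 421 such genes whose tested probe departed by over 1 in CMp replicate 1, 134 (31.8%) had every other probe within 0.5, and 156 (37.1%) had another probe over 1 the same way. The labels and the files used here name no chip or date, and what sets these arrays apart was not tested.

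Some lists moved with that array and others did not. The endothelial median was 0.62 log2 units below, and the smooth muscle and pericyte median 0.55 below, the other CMp arrays, and the mitosis median 0.36 below. The thick and thin filament, oxidative phosphorylation and fibroblast medians departed by 0.06, 0.10 and 0.06. Leaving CMp replicate 1 out gave 6099 called genes, 2971 higher and 3128 lower, and 5312 of the 5633 genes called with all arrays were called in the same direction without it.

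**Figure D5:**
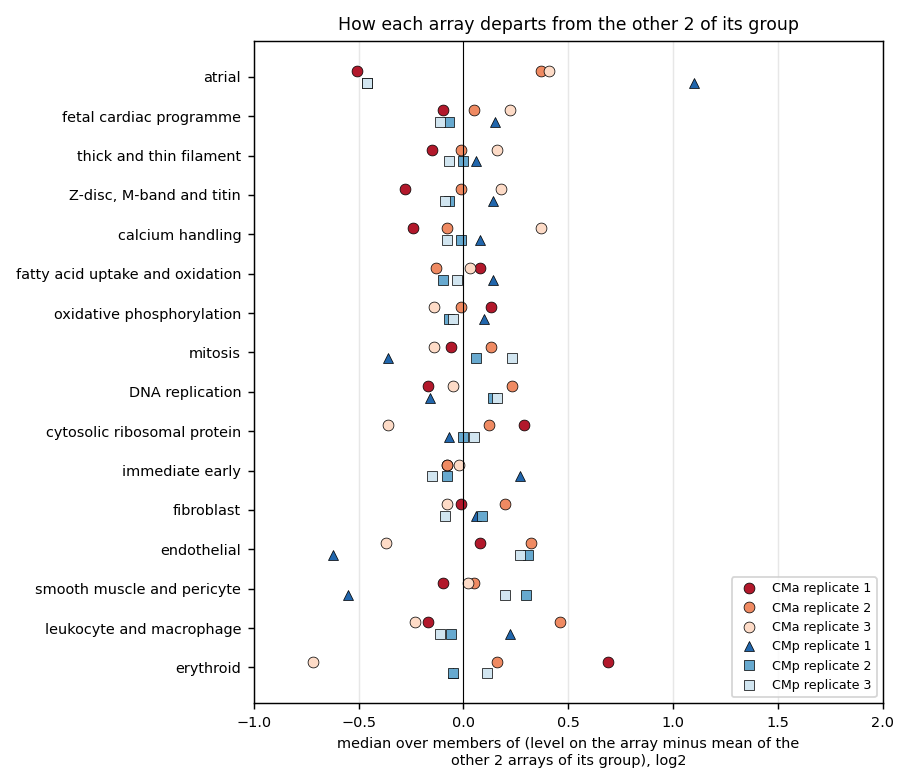
Median, over the tested members of 16 lists, of the level on an array minus the mean of the other 2 arrays of its group (log2), with CMa arrays as circles above CMp replicate 1 as a triangle and CMp replicates 2 and 3 as squares. The triangle is far right for the atrial list, at 1.10, and left for the endothelial and smooth muscle lists, at -0.62 and -0.55, and lies within 0.15 of 0 for the filament, oxidative phosphorylation and fibroblast lists.

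Genes of acute response were lower in CMa. In the immediate early list, the transcription factors and feedback genes that cells switch on within minutes of a stimulus, 18 of 21 tested members were lower and 3 did not pass (median log2 change -1.90). Egr2 had 4.31, 5.03 and 4.36 log2 units on the CMa arrays, against 9.58, 9.26 and 9.10 on the CMp arrays and was at least 14.2-fold lower in CMa (adjusted p = 7.44e-08), with no CMa array detecting it. Egr3 (at least 23.6-fold lower, not detected in CMa), Fosb (log2 change -4.50) and Socs3 (a feedback inhibitor of cytokine signalling, log2 change -2.79) were lower as well. The list's share of signal was 0.303%, 0.320% and 0.335% on the CMa arrays, against 1.08%, 0.905% and 0.836% on the CMp arrays, and CMp replicate 1 was the highest. Antioxidant genes were higher or did not pass: 13 of 22 tested members were higher and 9 did not pass (median log2 change 0.93). Nqo1, a quinone reductase, had 9.02, 9.19 and 8.37 log2 units on the CMa arrays, against 6.69, 5.99 and 5.52 on the CMp arrays (log2 change 2.79, SE 0.30, adjusted p = 2.58e-05). Gstm1 (log2 change 1.85), a glutathione transferase, and the mitochondrial enzymes Prdx3 (log2 change 1.71) and Txnrd2 (log2 change 1.53) were higher.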

How the data were processed

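Total RNA of the arrays was extracted with Trizol and labelled as biotin cRNA, per the labels' protocols. The deposited table held, per the file headers, a linear bead intensity and a detection p-value for each probe and array, without normalization. The authors' matrix of log2 values, which served as an alternative, was made with lumi according to the submitters' processing notes. The lumi version, its settings and the export software were not given in the sources used here.

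Intensities were background-corrected by normexp (limma 3.58.1 in R 4.3.3, negative-control parameters inferred from the detection p-values), offset by 16, quantile-normalized over the 9 arrays and taken to log2. Probes detected (p under 0.01) on at least 3 arrays numbered 19707, of which 16962 carried 1 symbol in GEO's platform annotation, updated through RefSeq gene identifiers. The 2745 probes with several or no symbols were left unnamed, and 493 of them were higher and 752 lower in CMa. The probe brightest on average over the 9 arrays, mES included, stood for a gene. Alternatives that changed the scaling, background, offset, filter or set of normalized arrays, and the authors' matrix, chose the probe anew. Of 4158 genes with several probes, 23 had probes that changed at least 2-fold in opposite directions. CMa minus CMp was tested by lmFit and eBayes with Benjamini-Hochberg adjustment. A gene undetected on all arrays of a group has only a bound there, given as "at least", computed against the lowest detected signal. Precision is limited by 3 arrays a group, and nothing names the animals or cultures behind these biological triplicates, so p-values measure the spread between arrays.

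On simulated data for this comparison over 10800 genes, 67 of 100 genes changed by 1 log2 unit and 98 of 100 changed by 2 were recovered, with 7 false calls. The simulation drew noise independently for each gene and array and changed only these genes. It held no shift shared between arrays, and far fewer genes changed in it than were called here. Its rates therefore need not hold for the real comparison. The 46 lists held 997 genes, of which 906 had a probe. Named genes were the 10 largest changes each way without overlap (1 clone symbol passed over), up to 4 leading called members of each list, called members against a list's majority, paired isoforms, cardiomyocyte markers and the 5 largest departures of CMp replicate 1. Defining markers of other cells were added. Members, lists and motifs were chosen with earlier results of these data known. Of the 762 list genes tested, 584 had a promoter. Alternatives were median scaling, cyclic loess, no background correction, an offset of 50, other filters, the mean of probes, the authors' matrix, array weights, a trended prior, a test against 2-fold, a replicate block, the 6 arrays alone and each array left out, with 3 array-set fits added after seeing the data.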

Additional observations from a re-analysis of the deposited data

How the results depend on the processing

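The 5633 calls ranged over 4831 to 6099 when each array was left out in turn (2469 to 2971 higher, 2362 to 3128 lower), and the 3187 calls of at least 2-fold over 3071 to 3549 (1507 to 1642 higher, 1564 to 1907 lower), the highest total being without CMp replicate 1. Calls of at least 2-fold depended on how low signals were treated: without background correction they numbered 1694 (799 higher, 895 lower), and in the authors' matrix 1205 (577 and 628), where 2708 of 45281 entries (5.98%) departed by over 0.1 log2 units on average from the scanner rank. Testing against a 2-fold change left 1321 genes (550 higher, 771 lower). Median scaling gave 1007 genes at least 2-fold higher, and 35.0% of its calls were higher, against 50.5% with quantiles. Array weights gave CMp replicate 1 a weight of 0.175 and called 7550 genes. The replicate block called 5847 genes. Departures of CMa and CMp arrays of the same number correlated at 0.35, -0.07 and 0.39. Those of CMa replicate 3 and CMp replicate 2 also correlated at 0.35. Departures within a group depend on each other, so whether the replicate numbers pair the samples could not be told from these values. The 6 cardiomyocyte arrays alone gave 5077 calls. Added fits gave 4522 calls for CMp replicate 1 with CMa replicates 1 and 2, 5854 for the other 3 arrays and 6111 with the array set as a term.

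Among named genes, these called values turned sign, or uncalled values became calls of the other sign: Bin1 to 0.01 and Rbl1 to 0.00 in the authors' matrix, Obsl1 to 0.10 on the 6 arrays alone, Atp5k to 0.30 with the mean of probes, Sln to 1.60 with array weights and to 1.84 with CMp replicates 2 and 3 and CMa replicate 3 alone, and Rbbp7 to -1.06 and Sec23a to -1.40 with the other set. Sln, Rbbp7 and Sec23a were named for the departure of CMp replicate 1, which these fits leave out, down-weight or rest on, so their changes restate it. The medians of 14 of 46 lists turned sign under at least 1 alternative. Of these 9 were within 0.2 of 0 and turned to values of -0.15 to 0.34, the neurohormone receptor median to 0.19 with array weights. The other 5 were the glial and neuronal (-0.08 to -0.02 under 3 alternatives), atrial (0.02 and 0.24), adipocyte (-0.31 and -0.16), fetal programme (0.05) and sex-linked medians (-2.69 with genes detected on all arrays of a group). In the authors' matrix 20 of the 32 medians over 0.2 from 0 lay over 1.5 times nearer 0, as 15 did without background correction. Of the remaining values of named genes under the alternatives, 5375 kept their side of the threshold, 260 lost a call and 30 gained one. Those that kept a call also kept its direction, while values uncalled in both fits were counted as kept whatever their sign. The cause was not tested. Signal near background and near the array's ceiling limits folds at both ends, and 669 tested genes were detected on no cardiomyocyte array.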

Other observations

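Stress and clock lists held members called in both directions, at shares to be read against the 26.3% higher and 25.8% lower of all genes tested. For heat shock, 5 of 17 tested members were higher, 6 were lower and 6 did not pass (median log2 change -0.29), with 3 members higher with median scaling or in CMp replicate 1 and CMa replicates 1 and 2 alone. The inducible chaperones Hspa1b (log2 change -2.81), Hspa1a (log2 change -2.37) and Hsp90aa1 (log2 change -2.00) were lower, whereas the small heat shock proteins of muscle Hspb8 (log2 change 2.00), Hspb6 (log2 change 1.29) and Hspb7 (log2 change 1.02) were higher. For the hypoxia response, 6 of 14 tested members were higher, 4 were lower and 4 did not pass (median log2 change 0.75), and 2 were lower without CMa replicate 3 or without CMp replicate 3. Egln1 (the prolyl hydroxylase that marks hypoxia-inducible factors for degradation, log2 change 3.04) and P4ha2 (log2 change 1.60) were higher, and Hmox1 (haem oxygenase 1, at least 10.1-fold lower, not detected in CMa) and Kdm3a (log2 change -1.46) were lower. For the circadian clock, 2 of 12 tested members were higher, 3 were lower and 7 did not pass (median log2 change -0.05). Dbp (a clock output gene, log2 change 1.92) was higher and Per2 (log2 change -1.50) and Per1 (log2 change -1.19) lower, and the time of day at which cells were taken is not stated in the labels.

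Among glial and neuronal genes, 3 of 7 tested members were higher, 2 were lower and 2 did not pass (median log2 change 0.39, but -0.08 with median scaling). Dbh (dopamine beta-hydroxylase of sympathetic neurons, log2 change 3.30, detected on 1 of 3 CMp arrays) and Stmn2 (log2 change 1.17) were higher, and Gap43 (a growth cone protein, at least 2.34-fold lower, not detected in CMa) was lower. Of pluripotency genes, 1 of 20 tested members was higher, 2 were lower and 17 did not pass (median log2 change -0.03, but 0.04 with median scaling and 0.34 with cyclic loess), and 16 of the 20 were detected on no CMa array and 13 on no CMp array. Klf5 (at least 13.5-fold lower, not detected in CMa) and Klf4 (log2 change -1.88) were lower, and Esrrb was the higher one. The adipocyte list had 1 tested gene, which did not pass. Of 4 sex-linked genes, 2 were higher (1 of them, Uty, not without CMa replicate 3 or CMp replicate 3) and 1 lower. Xist had 4.49, 4.30 and 4.33 log2 units on the CMa arrays, against 10.18, 11.60 and 11.52 on the CMp arrays, and Kdm5d (a Y-linked demethylase, log2 change 1.35) was higher, with 6.44, 6.67 and 6.82 log2 units on the CMa arrays, against 5.33, 4.98 and 5.58 on the CMp arrays.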
